A study of Mus musculus with 4 samples.

Results

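Among 32326 nuclei of the mouse retina profiled by droplet single-nucleus RNA sequencing, 110 (0.341% of the 32299 that passed a mitochondrial limit) carried a macrophage and microglia-like set of transcripts and are described here. A nucleus was taken when at most 5% of its unique molecular identifiers (UMIs, 1 per captured RNA molecule) were mitochondrial and when it held at least 4 UMIs, over at least 3 different genes, of Cd74, H2-Aa, Lyz2, C1qa, C1qb, Csf1r, Cx3cr1, Ptprc and Mrc1. It also had to hold at most 2 UMIs of the neuronal genes Gad1, Slc6a9 and Slc17a6 together, at most 3 of the glial genes Slc1a3 and Glul, and at most 1 of the bipolar cell genes Trpm1 and Grm6. The nuclei were thus chosen by their own counts, so the levels of these 16 genes, and every difference between the 110 nuclei and the rest, are description and were not tested.

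The 4 libraries came from the left eyes of 4 mice, 1 library per animal, with 2 mice at 2.5 months and 2 at 5 months of age. The 2.5-month mice are labelled wild type, and the labels of the 5-month mice give an age and a donor number but no genotype, strain or treatment. Of the 110 nuclei, 27 came from 2.5-month replicate 1, 17 from 2.5-month replicate 2, 33 from 5-month replicate 1 and 33 from 5-month replicate 2. Lists of 4 values below keep this order of libraries.

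Microglia are the resident macrophages of the retina. They depend on signalling through the receptor CSF1R and on the transcription factor PU.1, encoded by Spi1, and they survey the tissue, take up debris and make the complement component C1q. Macrophages of the eye's borders and vessels, monocytes from blood, dendritic cells and B cells share part of this transcript set, and antigen-presenting cells among them load peptides onto MHC class II molecules, whose invariant chain is encoded by Cd74.

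The libraries held 7404, 7422, 7537 and 9963 barcodes with 19608067, 28723257, 28042269 and 36320257 UMIs in all. Between any 2 libraries, 0.0808% to 0.337% of barcodes were shared, no barcode was repeated among the 110 nuclei, and 1 of their barcodes also occurred in another library. The matrices of the 2.5-month mice were written by Cell Ranger 7.1.0 and those of the 5-month mice by Cell Ranger 4.0.0, and since version changes with age, the effect of one cannot be told apart from that of the other below. The median depth of the 110 nuclei was 1950, 2506, 1852 and 1748 UMIs. For all barcodes of the same libraries with at most 5% mitochondrial UMIs it was 1815, 2899, 2744.5 and 2788 UMIs. A single nucleus reached 18114 UMIs, in 5-month replicate 2, where the 33 nuclei summed to 93660 UMIs.

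The genes that chose the nuclei were unevenly spread over them. Ptprc, which encodes the leukocyte phosphatase CD45, was detected in 86 of 110 nuclei with 65, 64, 63 and 86 UMIs per library. Csf1r, the receptor for the growth factors CSF1 and IL-34, was detected in 70 nuclei with 34, 26, 41 and 43 UMIs. The fractalkine receptor gene Cx3cr1 was detected in 62 nuclei with 36, 27, 56 and 43 UMIs. These 3 genes differed little between libraries, whereas the lysozyme gene Lyz2 had 55, 35, 82 and 446 UMIs and Cd74 had 91, 28, 94 and 504. Both were highest in 5-month replicate 2. Lyz2 has a near-identical neighbour, Lyz1, and how reads that match both were counted is not given in the sources used here. The mannose receptor gene Mrc1 went the other way, with 50, 30, 28 and 8 UMIs in 27 nuclei. At the edge of the rule, 5 nuclei were taken with exactly 4 UMIs and 26 with exactly 3 genes detected, while 14 nuclei with 3 genes and 3 UMIs and 14 with 2 genes and at least 4 UMIs were left outside.

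Outside the rule, the nuclei were set apart by signalling and receptor genes of myeloid cells. Among 6426 genes with enough counts to compare, 690 (10.7%) were at least 2-fold higher in the 110 nuclei than in all other nuclei of the same library in 4 of 4 libraries, and 358 (5.57%) were at least 2-fold lower. Since the rule used this contrast, these shares are background and nothing is read from them. The gene with the largest ratio of pooled levels was Siglech, a sialic acid-binding lectin of microglia, with 178, 277, 376 and 160 CPM (UMIs per 1000000 UMIs of the same nuclei) in the 110 nuclei and 0.205, 0.140, 0.179 and 0.221 in all others. Its level was highest in 5-month replicate 1 and the ages overlapped. Cd33, another sialic acid-binding receptor, had 146, 121, 133 and 85.4 CPM in the nuclei, where it was detected in every library, and it was at 0 among the other nuclei of 2.5-month replicate 2.

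Spi1, the gene of PU.1, had 438, 243, 194 and 267 CPM in the nuclei and 0.564, 0.419, 0.501 and 0.580 in the others. Inpp5d, which encodes the phosphatase SHIP1 that limits receptor signalling at the membrane, was found in 94 of 110 nuclei at 1183, 1179, 1019 and 630 CPM. Ly86, the partner of a Toll-like receptor homologue, was found in 74 nuclei at 632, 642, 982 and 673 CPM. The remaining leading genes included the RNA sensor Tlr7, the immune checkpoint receptor Havcr2, the cytokine receptors Csf3r and Il10ra, the costimulatory ligand Cd86, the adhesion ligand Selplg and Mir142hg, the host transcript of a microRNA of blood cells. Gm2245, also among them, lies antisense inside Fyb, and since it is not given whether strand was used in counting, reads of the pair cannot be told apart.

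**Figure D1:**
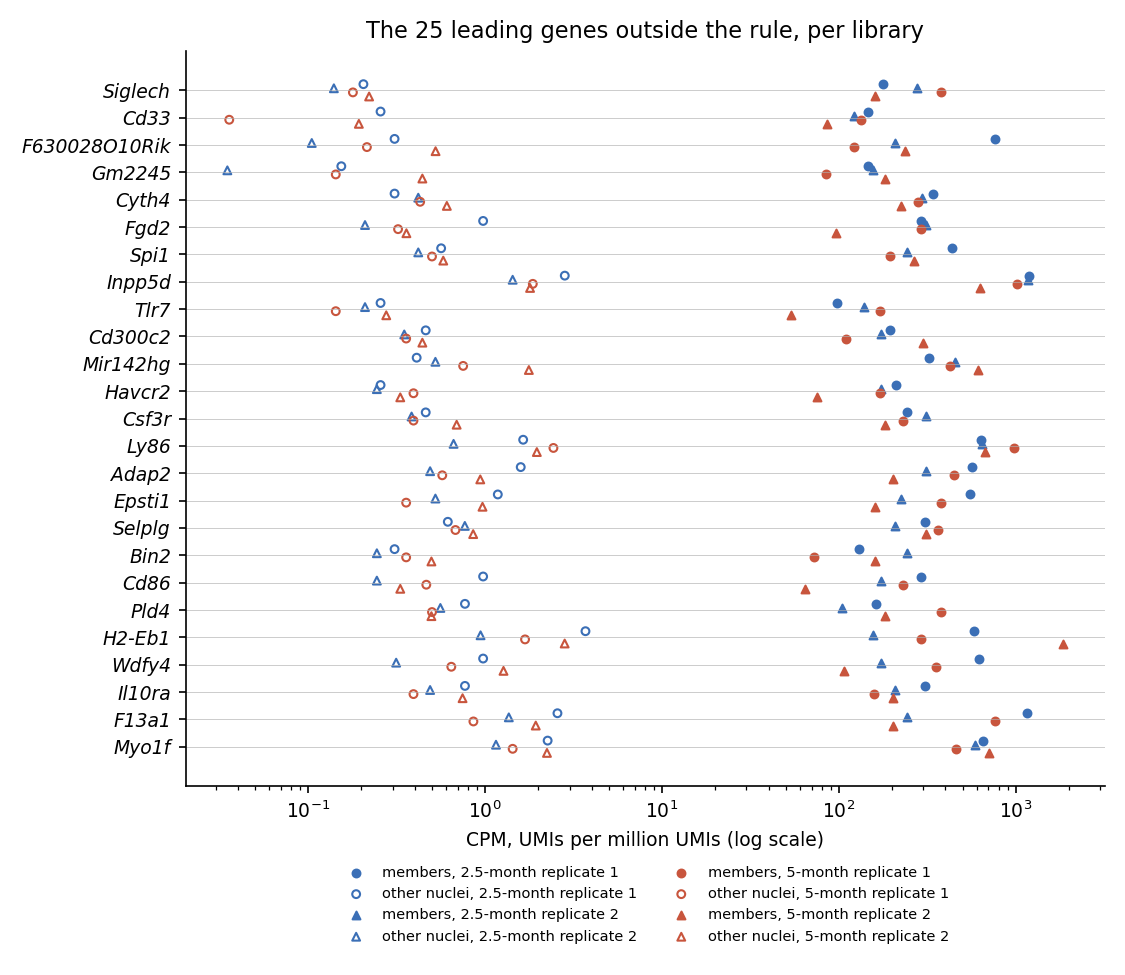
CPM (log axis) of the 25 leading genes outside the rule, with filled symbols for the 110 macrophage and microglia-like nuclei and open symbols for all other nuclei of the same library; blue is 2.5 months, red is 5 months, circles are replicate 1 and triangles replicate 2, and a level of 0 is not drawn. All filled symbols lie to the right of all open ones, and H2-Eb1 spreads most widely among the filled symbols, from 156 to 1847 CPM.

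The other genes are given by role, with intracellular signalling genes first. All 24 of 24 listed myeloid signalling genes were at least 2-fold higher in 4 of 4 libraries, with a median pooled ratio of 125, against a median of 1.13 over the 6426 genes compared. Besides Inpp5d they included Cyth4, an exchange factor for ARF GTPases, with a ratio of 600, the exchange factor gene Vav1 with 553, the motor gene Myo1f with 342 and the lysosomal membrane gene Laptm5 with 320. Among 13 measured regulators of the lineage and growth factor receptors, 8 of the 10 that could be compared passed. Ikzf1, a lymphoid and myeloid zinc finger factor, had 39, 26, 35 and 29 UMIs, and Runx1 had 33, 31, 47 and 21. Mef2c, a factor that neurons also use, reached a pooled ratio of 3.61. Maf and the GM-CSF receptor gene Csf2ra did not pass in every library.

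Most ligand genes were not a feature of the nuclei. Of 10 listed, 5 could be compared, and 2 of these were at least 2-fold higher in 4 of 4 libraries. The CSF1R ligands Csf1 and Il34 had 2 and 4 UMIs in all 110 nuclei, and the fractalkine gene Cx3cl1 had 6. Tgfb1, the ligand that sustains the microglial state, had 7, 13, 10 and 20 UMIs in 33 nuclei and a pooled ratio of 31.8. Its receptor gene Tgfbr1 had 76, 67, 113 and 68 UMIs in 73 nuclei. Tgfb2 was at least 2-fold lower than in the other nuclei in 4 of 4 libraries, at a pooled ratio of 0.0758.

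Of the complement and phagocytic receptor genes, 12 of 12 that could be compared were higher in 4 of 4 libraries, with a median ratio of 195. The 3 chains of C1q, of which the rule used C1qa and C1qb, had 47, 13, 97 and 67 UMIs of C1qa, 50, 10, 87 and 53 of C1qb, and 38, 11, 86 and 34 of C1qc. In each of the 3 genes 2.5-month replicate 2 was lowest and 5-month replicate 1 highest. A single nucleus of 5-month replicate 1 held 98 C1q UMIs. Fc receptor genes had fewer counts but little spread, with 7, 4, 9 and 7 UMIs of Fcgr1 and 6, 5, 11 and 9 of Fcgr3. The receptor gene Trem2 had 14, 3, 20 and 22 UMIs and its adaptor Tyrobp 11, 7, 17 and 71. Mertk, which binds phosphatidylserine bridges on dying cells, had a pooled ratio of only 13.7. It was detected in 51.3% of Müller-like reference nuclei, which also use it.

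The C1q genes lie together on chromosome 4 in GRCm38, C1qc and C1qb both on the minus strand. Stretches before the start sites of C1qc, C1qb and the microglial receptor gene P2ry12 are shown because each holds the letters AGGAAGT, the core of sites that PU.1 is known to bind, and Spi1 was among the leading genes. The match is in capitals, and a match on the other strand reads ACTTCCT. The sequences are from RefSeq, build GRCm38.p6, 96, 110 and 110 bases long, 5′ to 3′ on the minus strand, from chr4:136893066-136893161, chr4:136886201-136886310 and chr3:59262986-59263095.
C1qc: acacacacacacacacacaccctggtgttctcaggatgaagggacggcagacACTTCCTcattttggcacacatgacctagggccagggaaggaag
C1qb: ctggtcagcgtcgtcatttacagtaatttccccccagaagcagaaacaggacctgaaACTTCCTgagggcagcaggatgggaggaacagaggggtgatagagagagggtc
P2ry12: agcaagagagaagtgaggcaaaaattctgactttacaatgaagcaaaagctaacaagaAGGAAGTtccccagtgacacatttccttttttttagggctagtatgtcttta

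On either strand, these 7 letters occurred in the 250 bases before the start of 8.80% of 27025 genes in the RefSeq table. They occurred before 7 of 21 matched myeloid signalling genes (33.3%), namely Apbb1ip, Arhgap15, Blnk, Cyth4, Dock10, Inpp5d and Vav1. Of 14 matched complement and phagocytic genes, 4 had them, and of 10 matched homeostatic microglia genes, 3 did. The motif was chosen with the leading genes known. These counts describe letters in a window and say nothing of binding.

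Genes that mark undisturbed microglia were higher in most cases, with 10 of 11 comparable genes at least 2-fold higher in 4 of 4 libraries and a median ratio of 45.4. Gpr34, a receptor for lysophospholipids, had 18, 9, 15 and 17 UMIs in 35 nuclei. The purinergic receptor gene P2ry12, which guides processes towards ATP, had 34, 17, 40 and 26 UMIs in 48 nuclei, and the transcription factor gene Sall1 had 5, 7, 13 and 2 in 18. P2ry12 lies inside Med12l on the opposite strand, and 15.9% of Müller-like reference nuclei held a P2ry12 UMI against 43.6% of the 110 nuclei. Rtn1 alone did not pass, at a pooled ratio of 0.897.

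Genes raised in microglia of diseased tissue were mixed. Of 10 comparable genes 7 passed, among them Trem2, Tyrobp and the cathepsin gene Ctsb, with a list median ratio of 5.13. Cst7, a cystatin used as a marker of that state, had 0 UMIs in 110 nuclei, and the lipase gene Lpl had 2. Apoe had 112, 97, 168 and 212 UMIs, but it was detected in 98.8% of Müller-like reference nuclei and its pooled ratio was 2.89. Cytokine genes were close to the limit of detection, since Ccl12, a monocyte chemoattractant, was the only one of 15 with enough counts to compare, at 4, 8, 5 and 3 UMIs. Il1b had 5 UMIs and Tnf 4 in all, while Il6 and Il10 were detected in 0 of 110 nuclei, which allows a share of nuclei with a UMI of up to 2.73% and sets no limit on nuclei that express them. Of the 16 immediate early genes, which respond to stress and to tissue handling, 3 had enough counts and none of these passed.

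Other cell types were checked through their own lists. Rod genes passed in 0 of 18 cases, with a median ratio of 0.823, and made up 0.781%, 0.746%, 0.948% and 0.374% of the UMIs of the 110 nuclei against 1.22%, 0.870%, 0.633% and 0.632% in all others. The T cell receptor complex genes Cd3d, Cd3e, Cd3g and Trac had 0 UMIs. Astrocyte, endothelial and pericyte lists held 2 or more UMIs in 2, 5 and 4 nuclei. Pigment cell genes, among them Mitf, which myeloid cells also express, held 2 or more UMIs in 68 nuclei (61.8%). In the other nuclei of the 4 libraries this share was 57.2%, 55.4%, 41.1% and 61.1%. The Müller glia list did so in 84 nuclei (76.4%), beside 62.2%, 68.3%, 72.5% and 66.7% of the others. The fibroblast list did so in 12 (10.9%), beside 17.0%, 12.6%, 9.50% and 13.9%.

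Free RNA from broken cells adds UMIs to every droplet, so each detection rate was set beside that of 4462 rod-like and 2144 Müller-like reference nuclei chosen without any immune gene. Their median depths were 1119 and 3131.5 UMIs, against 1976 for the 110 nuclei. Spi1 was detected in 46.4% of the 110 nuclei, in 0.0672% of the rod-like and in 0.233% of the Müller-like nuclei. Siglech was detected in 29.1%, 0.0224% and 0.0466%, and H2-Eb1 in 23.6%, 0.426% and 0.793%. With every nucleus thinned to 900 UMIs, Spi1 was still detected in 21.1% of 109 nuclei. The shares of these genes in the reference nuclei were all under 1%, in contrast to Tgfbr1 with 19.5% of Müller-like nuclei.

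The 110 nuclei were not of 1 kind. Each was assigned to 1 of 4 gene lists, those of homeostatic microglia, border and perivascular macrophages, monocytes and B cells, by the most UMIs if at least 3 genes of that list were detected and it had at least 2 times the UMIs of the next list, a split made after the counts were seen and therefore a description. By this split 47 nuclei (42.7%) were led by homeostatic microglia genes, 18 (16.4%) by border and perivascular macrophage genes, 9 by monocyte genes and 5 by B cell genes, and 31 had no single leading list. Other lists did not compete, and 1 of the 9, a nucleus of 1496 UMIs in 5-month replicate 2, held 63 UMIs of the T and NK cell list against 6 of the monocyte list. Among the 47, a nucleus of 3607 UMIs in 2.5-month replicate 1 held 12 UMIs of the dendritic cell list against 5 of the microglia list. A nucleus of 1127 UMIs in 5-month replicate 2 held 16 UMIs of Cd74, H2-Aa, H2-Ab1 and H2-Eb1 and 0 of P2ry12, Tmem119, Sall1 and Siglech. A nucleus of 1003 UMIs in 5-month replicate 1 had only 3 UMIs of the microglia list. In library order, microglia genes led in 10, 6, 19 and 12 nuclei and border macrophage genes in 9, 2, 6 and 1. Monocyte genes led in 0, 0, 1 and 8 nuclei and B cell genes in 0, 1, 2 and 2. The label macrophage and microglia-like thus fits the leading genes of most assigned nuclei, but the rule also admitted the 5 nuclei led by B cell genes.

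**Figure D2:**
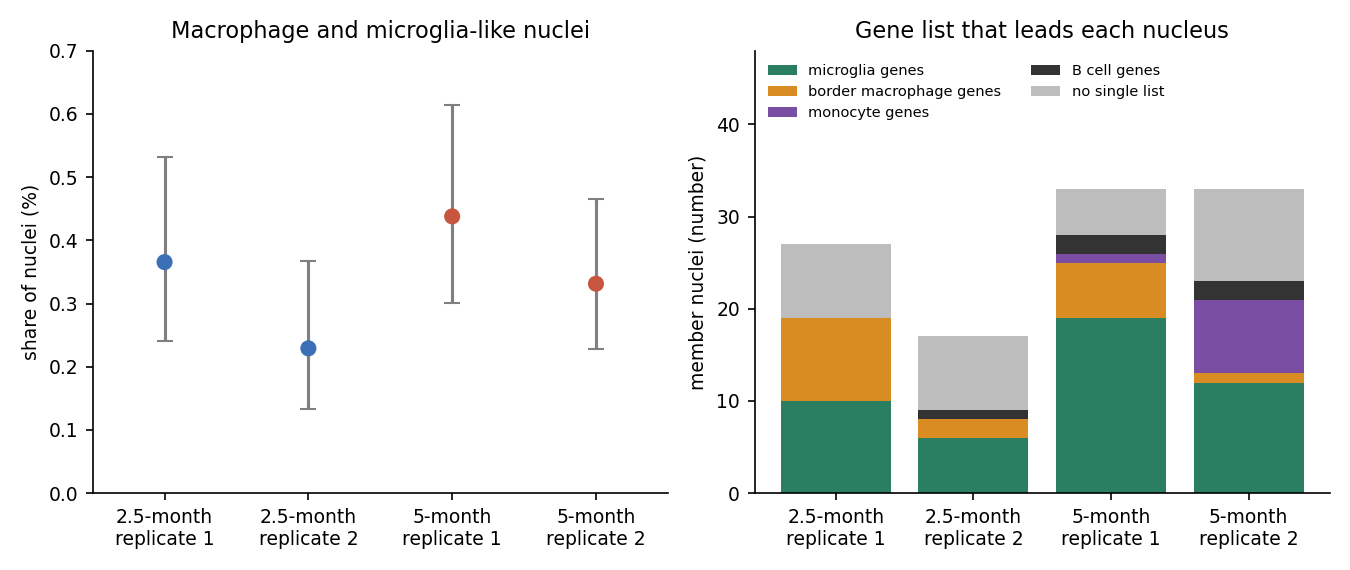
Left, share of nuclei (%) that met the rule in each library, with exact 95% binomial intervals for counting error; right, number of those nuclei led by each gene list. The shares lie between 0.229% and 0.438% with overlapping intervals, and of the 4 lists compared, monocyte genes led in 9 nuclei, of which 8 are in 5-month replicate 2, 1 of them with more UMIs of the T and NK cell list.

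The nuclei led by microglia genes had a median depth of 1817 UMIs and shared several genes that no list had named. Plxdc2, a transmembrane plexin-domain gene, was found in 42 of the 47 with 427 UMIs, or 3808 CPM against 267 in the other nuclei of the set. The secreted matrix protein gene Sparc was found in 24 with 34 UMIs, and only 4 UMIs lay in the remaining 63 nuclei. The prostaglandin synthase gene Ptgs1 had 24 UMIs in 18 of them and 1 UMI in the rest. Csmd3 had 188 UMIs in 27 nuclei, up to 27 in 1 nucleus. The cone opsin gene Opn1mw and the cone arrestin gene Arr3 also ranked high here, but 29 of 58 and 46 of 72 UMIs came from a single nucleus of 8434 UMIs in 5-month replicate 1.

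Within these 47 nuclei, P2ry12 stood at 1235, 684, 791 and 832 CPM, where the ages overlapped. Tgfbr1 had 2520 and 2962 at 2.5 months and 2110 and 1526 at 5 months. Plxdc2 had 4446 and 5412 at 2.5 months and 3472 and 2913 at 5 months, and Inpp5d had 1927 and 2507 against 1143 and 1214. In these 3 genes the ages did not overlap, as in 52% of the 333 genes tested in these nuclei, 40.8% lower and 11.1% higher at 5 months. These shares are of plain CPM, without the scaling between libraries that the fit below applied. Malat1 alone had 37844 and 29739 CPM at 2.5 months and 47618 and 77409 at 5 months. The fitted log2 differences were -0.17 (SE 0.353) for Tgfbr1, -0.20 (SE 0.365) for Plxdc2 and -0.48 (SE 0.375) for Inpp5d, and none passed the edgeR test of age described further on. The cathepsin gene Ctsb lay the other way, with 198 and 285 CPM at 2.5 months and 615 and 555 at 5 months, a log2 difference of 1.69 (SE 0.495) and an edgeR adjusted p of 0.185. Sall1 was found in 3 of 10, 4 of 6, 10 of 19 and 0 of 12 nuclei.

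**Figure D3:**
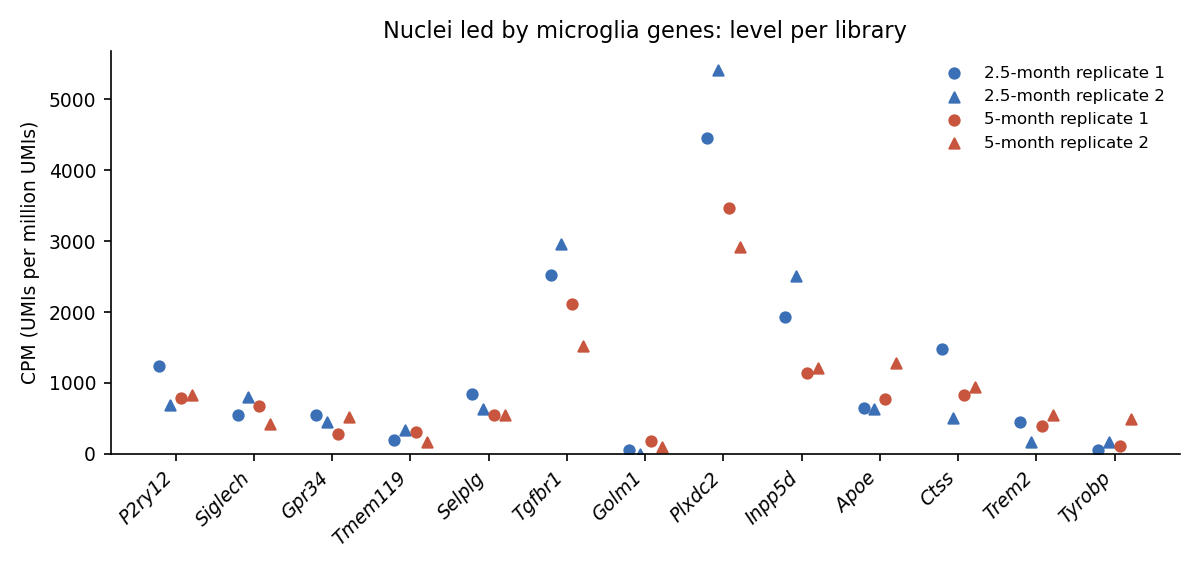
CPM of 13 genes in the 47 nuclei led by microglia genes, summed per library, with blue for 2.5 months, red for 5 months, circles for replicate 1 and triangles for replicate 2. Plxdc2, Tgfbr1, Inpp5d and Selplg lie higher in both 2.5-month libraries, as do 40.8% of the 333 genes tested in these nuclei. Apoe lies higher in both 5-month libraries, as do 11.1% of the 333 genes, and so does Golm1, with 12 UMIs in all. P2ry12 overlaps between the ages. Sums rest on 10, 6, 19 and 12 nuclei.

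The nuclei led by border macrophage genes carried F13a1, the A subunit of coagulation factor XIII, Mrc1, the scavenger receptor gene Stab1 and Cd163, which encodes the haemoglobin-haptoglobin receptor. F13a1 had 71, 14, 63 and 19 UMIs in 18 of the 110 nuclei and Stab1 had 51, 23, 29 and 5 in 34. Both were highest in 2.5-month replicate 1. Beyond the lists, Rbpj, the DNA-binding partner of Notch, had 207 UMIs in 11 of these 18 nuclei, and Selenop, a selenium carrier, had 56 in 13. A nucleus of 5496 UMIs in 5-month replicate 1 held 133 of all 146 UMIs of Retnla, a resistin-like gene of alternatively activated macrophages, and 30 of 33 UMIs of the chemokine gene Pf4. It also held 9 of 9 UMIs of Cbr2 and 20 of 25 of the folate receptor gene Folr2.

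The nuclei led by monocyte genes were nearly all in 5-month replicate 2. There, Ccr2, the receptor that brings monocytes out of the marrow, had 33 UMIs against 10, 0 and 8 in the other libraries, and the monocyte surface gene Ly6c2 had 22 against 0, 0 and 0. In this group, 5 nuclei held 40 or more Lyz2 UMIs each, a limit set after the counts were seen. Together they carried 383 of the 446 Lyz2 UMIs and 184 of the 239 monocyte-list UMIs of that library, with 0 C1q UMIs. The group further held Hp, the haptoglobin gene, with 19 UMIs in 4 nuclei, Ifitm3, an interferon-induced membrane gene, with 98 in 7, and the adhesion receptor gene Adgre5 with 37 in 9. A single nucleus of 1496 UMIs among them held all 49 Gzma and all 5 Prf1 UMIs of the 110 nuclei. These genes encode proteins of cytotoxic granules, and the same nucleus held all 4 UMIs of Nkg7 and both of Klrb1c, markers of natural killer cells.

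The 5 nuclei led by B cell genes were shallow, with a median of 1239 UMIs. Bach2 and Bcl11a, transcription factors of B cells, had 34 and 20 UMIs and were detected in all 5. Cd74 had 85 UMIs there, and it was among the rule genes by which these nuclei were taken. Over the 110 nuclei Ebf1, which defines the B lineage but is also active in stromal and neuronal cells, had a pooled ratio of 0.640, and the antigen receptor genes Cd79a and Cd79b had 13 and 17 UMIs in 4 nuclei each.

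MHC class II transcripts and microglia transcripts were seldom found in the same nuclei. The summed UMIs of Cd74, H2-Aa, H2-Ab1 and H2-Eb1 were 194, 51, 180 and 1015 in the 4 libraries, and 64 of the 110 nuclei had none. In 22 nuclei the sum was 10 or more, and in 2 of these 22 the microglia genes P2ry12, Tmem119, Sall1 and Siglech had 2 or more UMIs. Conversely, 42 of the 47 nuclei with 2 or more UMIs of the microglia genes had 0 MHC class II UMIs. As Cd74 and H2-Aa helped to choose the nuclei, a nucleus without them needed other rule genes to enter, which favours such a split. Counting only H2-Ab1 and H2-Eb1, which the rule did not use, 33 nuclei held a UMI, and 4 of these 33 had 2 or more UMIs of the microglia genes. This count is not free of the rule either, since such nuclei could enter through Cd74 and H2-Aa. The 18114-UMI nucleus, with 146 UMIs of H2-Ab1 and H2-Eb1, had 197 of Cd74 and 85 of H2-Aa among its 286 rule UMIs.

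The class II signal was concentrated. The 18114-UMI nucleus of 5-month replicate 2 held 428 of the 1440 class II UMIs, a nucleus of 1605 UMIs in the same library held 184, and 3 nuclei held 50.7% of the total. The 1605-UMI nucleus had 7 UMIs of the dendritic cell list, 2 of Lyz2 and 0 of C1q. Genes of the loading machinery followed in the same library, with 3, 0, 6 and 19 UMIs of H2-DMa and 3, 0, 4 and 17 of H2-DMb1. Ciita, the master activator of class II genes, had 7, 5, 10 and 5 UMIs and did not follow them. The cysteine protease gene Ctss, which trims the invariant chain, was detected far more widely, in 76 nuclei with 56, 14, 60 and 95 UMIs. Of 6 comparable genes on this list 4 were at least 2-fold higher in 4 of 4 libraries, with a median ratio of 153.

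**Figure D4:**
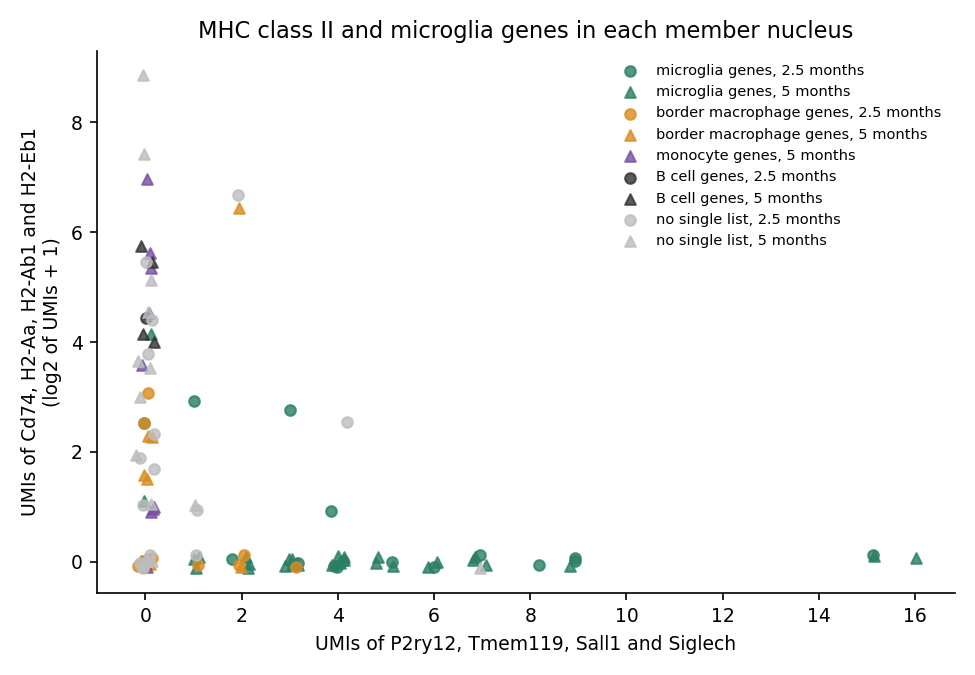
Each point is 1 of the 110 nuclei, placed by its UMIs of 4 microglia genes (horizontal) and by log2 of its UMIs of 4 MHC class II genes plus 1 (vertical), with a small random shift to separate points; colour gives the leading gene list, circles are 2.5 months and triangles 5 months. Nuclei with many UMIs of one group have few or none of the other, and 42 of the 47 nuclei with 2 or more microglia UMIs lie at 0 on the vertical axis.

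The class II genes H2-Aa (chr17, minus strand) and H2-Eb1 (chr17, plus strand) both had most of their UMIs in 5-month replicate 2, with 193 of 266 and 173 of 242, and the bases before their starts are shown for the shared Y box, a site of the class II promoter bound by the factor NF-Y. The letters CTGATTGG are in capitals. The sequences are from RefSeq, build GRCm38.p6, 110 bases each from chr17:34287824-34287933 and chr17:34305754-34305863, 5′ to 3′ on the strand of the gene.
H2-Aa: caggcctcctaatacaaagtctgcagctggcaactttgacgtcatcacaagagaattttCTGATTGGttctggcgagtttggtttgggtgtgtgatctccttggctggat
H2-Eb1: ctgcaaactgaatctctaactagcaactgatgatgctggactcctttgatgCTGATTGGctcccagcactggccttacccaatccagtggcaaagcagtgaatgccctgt

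On either strand these 8 letters occurred in the 250 bases before the start of 4.43% of 27025 genes, and before 3 of 9 matched genes of the class II list with H2-Aa and Cd74, namely H2-Aa, H2-Eb1 and H2-Oa. The letters were chosen after the leading genes were known. Gm20513 overlaps H2-Eb1 on the opposite strand, so its reads cannot be told apart from those of H2-Eb1 unless strand was used.

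Between the ages, the question was whether the share of these nuclei, or their transcripts, differed between 2.5 and 5 months. The share was 0.366% and 0.229% of nuclei at 2.5 months, with exact 95% intervals of 0.241% to 0.531% and 0.134% to 0.367%. At 5 months it was 0.438% and 0.331%, with intervals of 0.302% to 0.614% and 0.228% to 0.465%, which cover counting error only. The means were 0.297% ± 0.0965 (SD, n = 2) and 0.385% ± 0.0753 (SD, n = 2), and the libraries overlapped. The difference of 0.0873 percentage points had p = 0.667 in a 2-sided exact permutation test over the 4 libraries, where the smallest possible p is 0.333. Shares of nuclei depend on recovery, and more cells cannot be told apart from better recovery of them.

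No gene outside the rule passed the test of age within the 110 nuclei. Counts were summed per library and fitted with the quasi-likelihood test of edgeR, with Benjamini-Hochberg adjustment over all genes tested. Of 1909 genes, 0 were called at an adjusted p under 0.05 in either direction (0%), the lowest adjusted p being 0.128. At an unadjusted p under 0.05 there were 132 genes higher and 28 lower at 5 months, and DESeq2 called 11 higher and 0 lower, led by the neuronal genes Nrg3, Snhg11 and Meg3. Leaving out each library in turn, in library order, gave 61, 37, 139 and 26 genes called higher and 20, 1, 11 and 14 lower by edgeR, so the count of 0 held only with all 4 libraries in this set of fits. On simulated counts of the same depth the test recovered 6.67% of 2-fold, 36.2% of 4-fold, 87.8% of 8-fold and 100% of 16-fold changes. Changes of 2-fold and 4-fold were thus often missed. The simulation gave every gene the same spread between libraries. In the real counts Grip1, Rbfox1 and Slit2 had log2 fold changes of 4.60, 5.25 and 5.60 and did not pass. The simulated rates can therefore be too high for single genes. In 798 of the 1909 genes (41.8%) the 2 libraries of one age lay entirely above those of the other, 241 higher (12.6%) and 557 lower (29.2%) at 5 months. These counts are of plain CPM, without the scaling between libraries used in the fit.

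The 5 genes with the lowest p were Grip1, Ralyl, Rbfox1, Slit2 and Fgf14, all genes of neurons, and they did not pass. Grip1, which anchors glutamate receptors, had 1, 2, 46 and 49 UMIs, a log2 fold change of 4.60 (SE 0.578) and an adjusted p of 0.128 by edgeR. The splicing factor gene Rbfox1 had 0, 2, 55 and 49 UMIs. Both were higher in both 5-month libraries. Among genes lower at 5 months the lowest p values were those of Aftph, P3h2, Gm38399, Herc4 and Cdk13. Aftph, a gene of vesicle trafficking, had 33, 35, 20 and 12 UMIs, a log2 fold change of -1.38 (SE 0.441) and an adjusted p of 0.452 by edgeR.

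By role, none of the lists held a gene that passed. Of the 7 homeostatic microglia genes tested the median log2 difference was 0.36, against 0.01 over all genes tested. In CPM, 2 of the 7 did not overlap and were higher at 5 months, Selplg among them, beside 12.6% of all genes tested. In the nuclei led by microglia genes, Selplg lay the other way, at 840 and 627 CPM at 2.5 months and 549 and 555 at 5 months. Its fitted log2 difference there was 0.009 (SE 0.410). Of the 5 border macrophage genes tested all had lower fitted levels at 5 months, with a median of -0.72. Stab1, Ms4a7 and Dab2 did not overlap, each lower at 5 months, beside 29.2% of all genes tested. The 9 lysosome and lipid genes had a median of 1.16, and Lamp1, Ctsz, Npc2 and Grn were higher and Abca1 lower at unadjusted p under 0.05, beside 132 higher and 28 lower of all 1909 genes. Lamp1, a lysosomal membrane gene, had 11, 3, 26 and 30 UMIs and an adjusted p of 0.468 by edgeR, and the progranulin gene Grn had 16, 6, 79 and 17 UMIs, of which 45 lay in 1 nucleus. Abca1, a cholesterol exporter, had 38, 18, 17 and 7 UMIs.

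The class II genes leaned on 1 animal. H2-Eb1 had 36, 9, 24 and 173 UMIs and H2-Ab1 had 39, 6, 25 and 145, with log2 differences of 1.93 (SE 1.01) and 1.72 (SE 1.02) and edgeR adjusted p values of 0.723 and 0.799. In both genes 5-month replicate 1 lay below 2.5-month replicate 1. Of the 2 monocyte genes tested, S100a6 had 11, 7, 16 and 58 UMIs and Ccr2 had 10, 0, 8 and 33.

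A second model asked whether any age difference in the 110 nuclei differed from that in all other nuclei of the same libraries. With the library as a block, 17 of 15994 genes (0.106%) were called by edgeR, 15 with a larger rise and 2 with a larger fall in the 110 nuclei. The 15 were Retnla, Slit2, Kcnh7, Nrg3, Rbfox1, Otud7a, Grip1, Ralyl, Plcb1, Srrm4, Fn1, Kirrel3, Astn2, Fgf14 and Car10, and the 2 were Tyr, the pigment enzyme tyrosinase, and Arhgap6. Apart from Retnla and Fn1, the fibronectin gene, the 15 are genes with known expression in neurons. Nrg3, a neuregulin, had 0, 3, 37 and 179 UMIs, Slit2, an axon guidance cue, had 0, 1, 28 and 44, and Kcnh7, a potassium channel gene, had 0, 0, 9 and 55. All 3 were higher in both 5-month libraries. Retnla was not, with 3, 0, 143 and 0 UMIs, of which 133 lay in 1 nucleus. The counts of genes called changed with the libraries and the block. Leaving out each library in turn, in library order, gave 4, 3, 0 and 1 genes with a larger rise and 19, 1, 0 and 0 with a larger fall, and no library block gave 0 and 0.

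These UMIs came from a handful of deep nuclei. Without Retnla and Fn1, the 13 genes higher at 5 months had 20 UMIs in the 44 nuclei at 2.5 months and 945 in the 66 at 5 months, of which 723 lay in 3 nuclei and 885 in 7. Their share of all UMIs was 0.972, 2.43, 38.4 and 67.1 per 10000 in the 110 nuclei, and 79.2, 114, 112 and 89.4 per 10000 in the other nuclei, where it did not separate the ages. The 18114-UMI nucleus alone held 140 of the 219 Nrg3 UMIs and 39 of 106 of Rbfox1. At 2.5 months, nuclei of 7731 and 11115 UMIs were also in the set, and the 13 genes had few UMIs there. For the falls, 19 of 21 Tyr UMIs lay in the 11115-UMI nucleus of 2.5-month replicate 2, which also held 63 UMIs of the pigment epithelium gene Rpe65, and 48 of 66 Arhgap6 UMIs lay in a nucleus of 6246 UMIs with 20 of the fibroblast gene Dcn.

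Without the 18 nuclei above 4000 UMIs, a limit chosen after the data were seen, 1 gene was called higher and 0 lower. That gene was Fn1, with 0, 2, 4 and 38 UMIs and an adjusted p of 0.00193 in this fit by edgeR. The 13 genes then made up 0.353, 1.81, 6.30 and 4.29 per 10000 UMIs. Fn1 is a gene of the monocyte list, and monocyte genes led in 0, 0, 1 and 8 nuclei of the 4 libraries. Of the Fn1 UMIs, 34 of 44 lay in 3 nuclei. The highest, with 15, was a nucleus of 1972 UMIs in 5-month replicate 2 led by monocyte genes. Whether the Fn1 difference holds without these nuclei was not tested. Of the 110 nuclei, 3 were among the barcodes called as doublets, and the age fit called 0 genes without them. Leaving them out of the second model was not tested.

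**Figure D5:**
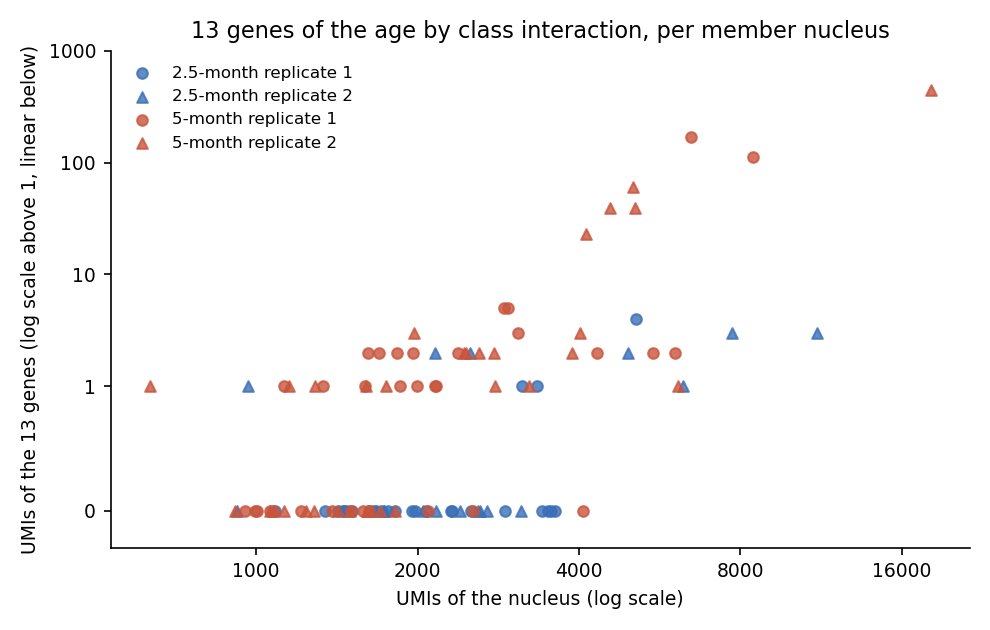
Each point is 1 of the 110 nuclei, placed by its total UMIs (log axis) and by its UMIs of the 13 genes other than Retnla and Fn1 with a larger rise at 5 months (log axis above 1, linear below); blue is 2.5 months, red 5 months, circles replicate 1 and triangles replicate 2. At 5 months, 7 nuclei, all above 4000 UMIs, hold 885 of the 945 UMIs at 5 months, and 26 of the 66 nuclei at 5 months hold none.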

How the data were processed

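Retinal nuclei of 4 mice (2 per age) were profiled with 10x single-nucleus RNA-seq. The deposited files hold raw UMI counts per gene and barcode, made with Cell Ranger 7.1.0 (2.5 months) or 4.0.0 (5 months) per the file headers, on mm10 per the submitters' processing notes. Whether introns and strand were counted is not given in the sources used here. The other files list 31053 genes and the barcodes.

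Members were selected by the stated rule in Python 3.11.15 (scipy 1.17.1, scanpy 1.11.5 for doublet scores, top 6% per library). The members and gene lists were chosen with earlier results of these data known. Counts were summed per library and tested with edgeR 4.0.16 (TMM, filterByExpr, quasi-likelihood, 2-sided, threshold 0.05), with DESeq2 1.42.0 as an alternative. The age test was checked on simulated counts in which every gene had the same spread between libraries. A library is 1 animal, and cells are not replicates. Levels against other nuclei used genes whose observed UMIs in the members plus their expected UMIs were at least 20.

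Named genes were the 25 with the largest pooled ratio (at least 30 UMIs, 5 in each library, ratio above 2 in 4 of 4), the rule's genes, the top 4 of each list by UMIs, called genes, and, where fewer than 5 were called, the 5 of lowest p in each direction. Others were chosen after their values were seen. Of 31053 feature IDs, 31011 matched GENCODE vM21 (GRCm38). Same-numbered replicates did not deviate together by the correlation of their deviations (0.00312). Xist, a transcript of female cells, did follow the replicate number. In the nuclei led by microglia genes it had 0, 3247, 0 and 2705 CPM in library order. An effect of sex was not tested. Alternatives were other scaling, no filter, a replicate block, each library left out, other membership rules and subsets of nuclei.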

Additional observations from a re-analysis of the deposited data

Results flagged for a closer look

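For 17 genes the age difference in the 110 nuclei differed from that in all other nuclei by the interaction test of edgeR, and each is given here with its adjusted p. Retnla had 0.00016, Slit2 0.000263, Kcnh7 0.00247, Nrg3 0.00501, Rbfox1 0.00729, Otud7a 0.0135, Grip1, Ralyl, Plcb1 and Srrm4 0.0319 each, Fn1, Kirrel3 and Astn2 0.041 each, and Fgf14 and Car10 0.0495 each, all with the larger rise at 5 months. Tyr had 0.0079 and Arhgap6 0.0135, both with the larger fall. Retnla had 143 UMIs in 5-month replicate 1 and 0 in 5-month replicate 2. With member nuclei above 8000 UMIs left out, Retnla, Arhgap6, Fn1 and Kirrel3 of these 17 were still called. With those above 4000 UMIs left out, Fn1 was still called and the adjusted p of the other 16 was 1.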

How the results depend on the processing

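The share of nuclei was higher at 5 months under all 11 alternatives, by 0.019 to 0.164 points, with exact permutation p from 0.333 to 1. No gene was called in the age fit with another scaling, without a count filter, with a replicate block (0 higher, 0 lower), with the stricter rule, without doublets or under 6 other subsets of nuclei. A limit on rod genes removed 0 nuclei. DESeq2 called 11 higher and the looser rule 2 higher. Leaving out 1 library gave 26 to 139 genes higher and 1 to 20 lower, where the lone library is assumed to vary like the pair. The cause was not tested. In these fits the log2 difference of Xist was 9.13 without 2.5-month replicate 2 and -9.08 without 5-month replicate 2. In the interaction, the fit with no library block called 0 higher and 0 lower. Leaving out 1 library gave 0 to 4 higher and 0 to 19 lower, 0 and 0 without 5-month replicate 1. Of the alternatives chosen after seeing the data, leaving out nuclei above 8000 UMIs called 5 higher, Retnla, Fn1 and Kirrel3 among them, and 1 lower, Arhgap6. Leaving out those above 4000 called 1 higher, Fn1, and 0 lower. With only nuclei led by microglia genes, 1 gene was called higher and 0 lower, and that gene was none of the 17 above. The 10 genes named from the age fit kept their direction in all 152 refits that tested them. The 5 higher at 5 months passed in 23 of their 67 refits, 19 of these with 1 library left out, and were not tested without nuclei above 4000 UMIs or in nuclei led by microglia genes. The 5 lower passed in 0 of 85. Each library gave 17 to 33 nuclei and 57668 to 93660 UMIs.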
